A study of Sus scrofa with 25 samples.

Results

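The enzymes that carry glucose 6-phosphate to lactate in skeletal muscle were followed through 25 muscle libraries, 1 per pig: GPI, PFKM, ALDOA, TPI1, GAPDH, PGK1, PGAM2, ENO3, PKM and LDHA. These 10 genes were taken by symbol from an Ensembl table of pig gene names, and each matched 1 identifier among 25879 analysed. No cut on measured values was used, but earlier results of these data were known when the genes were chosen. The pigs were crosses of Polish Large White sows with Landrace boars and were penned singly. From day 85 of life, for 90 days, they ate feeds alike in protein and energy that differed in vitamin D3: 0 IU/kg for the control group (8 pigs), 5000 IU/kg for D5000 (8 pigs) and 10000 IU/kg for D10000 (9 pigs). Litters were spread over the 3 diets, but the labels did not tie a pig to its litter, sex or muscle. Replicate numbers below are the animal numbers of the labels.

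Glycolysis splits a 6-carbon sugar into triose phosphates and gains ATP and NADH while turning them into pyruvate, and lactate dehydrogenase regenerates NAD+ when pyruvate is reduced to lactate. Several steps have isozymes encoded by separate genes. Fast-contracting muscle fibres hold large amounts of these enzymes and use the muscle forms PFKM, ALDOA, PGAM2, ENO3 and LDHA, whereas other tissues rely more on PFKL, PFKP, ALDOC, PGAM1 or ENO1. Glycolytic transcripts therefore serve as a readout of fibre type and of the cell mixture of a sample as well as of metabolism.

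The libraries (QuantSeq FWD) hold reads from the 3′ ends of polyadenylated RNA. A long transcript gives no more reads than a short one, so levels of different genes are set side by side as CPM, the counts of a gene scaled to the total gene counts of its library, without division by length. Total gene counts ran from 3310507 to 15177976, and 24.9% to 70.6% of the reads in a file were assigned to genes. Markers of fast-twitch muscle were present throughout, and all 11 of 12 listed that had an identifier were above 0 in at least 1 library of each diet, with a summed level of 18091 to 87254 CPM in 24 libraries. D10000 replicate 27 stood apart: its fast-twitch sum was 3263 CPM, its adipocyte markers summed to 19508 CPM against 230 to 615 CPM in the other libraries, and its extracellular matrix markers summed to 7680 CPM against 688 to 2908 CPM. Results that rest on it are given with and without it. Transcripts typical of liver, which muscle is not known to make at such levels, summed to 3533 to 40042 CPM over the libraries.

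Glycolytic enzyme transcripts took a large share of the muscle mRNA. The 10 genes together held between 4.89% and 13.6% of gene counts in control libraries (median 8.61%), between 2.17% and 12.0% in D5000 libraries (median 7.70%) and between 1.94% and 11.8% in D10000 libraries (median 7.73%). GAPDH ranked 2 and ALDOA 4 among all genes by mean CPM, and ENO3, PKM, PGAM2 and LDHA ranked 15, 26, 39 and 48. TPI1, GPI and PGK1 followed at ranks 71, 102 and 134, and PFKM came last at 462. Neighbours in this order did not always keep it. GAPDH exceeded ALDOA in 23 of 25 libraries, ALDOA exceeded ENO3 in 20, PGAM2 exceeded LDHA in 19 and LDHA exceeded TPI1 in 18, whereas PGK1 exceeded PFKM in all 25. The log2 ratio of LDHA to TPI1 averaged 0.42 with an SD of 0.91 over the 25 libraries. That of PGAM2 to LDHA averaged 0.49 with an SD of 1.04. For both, the spread between libraries exceeded the mean ratio, and whether the means differ from 0 was not tested.

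**Figure D1:**
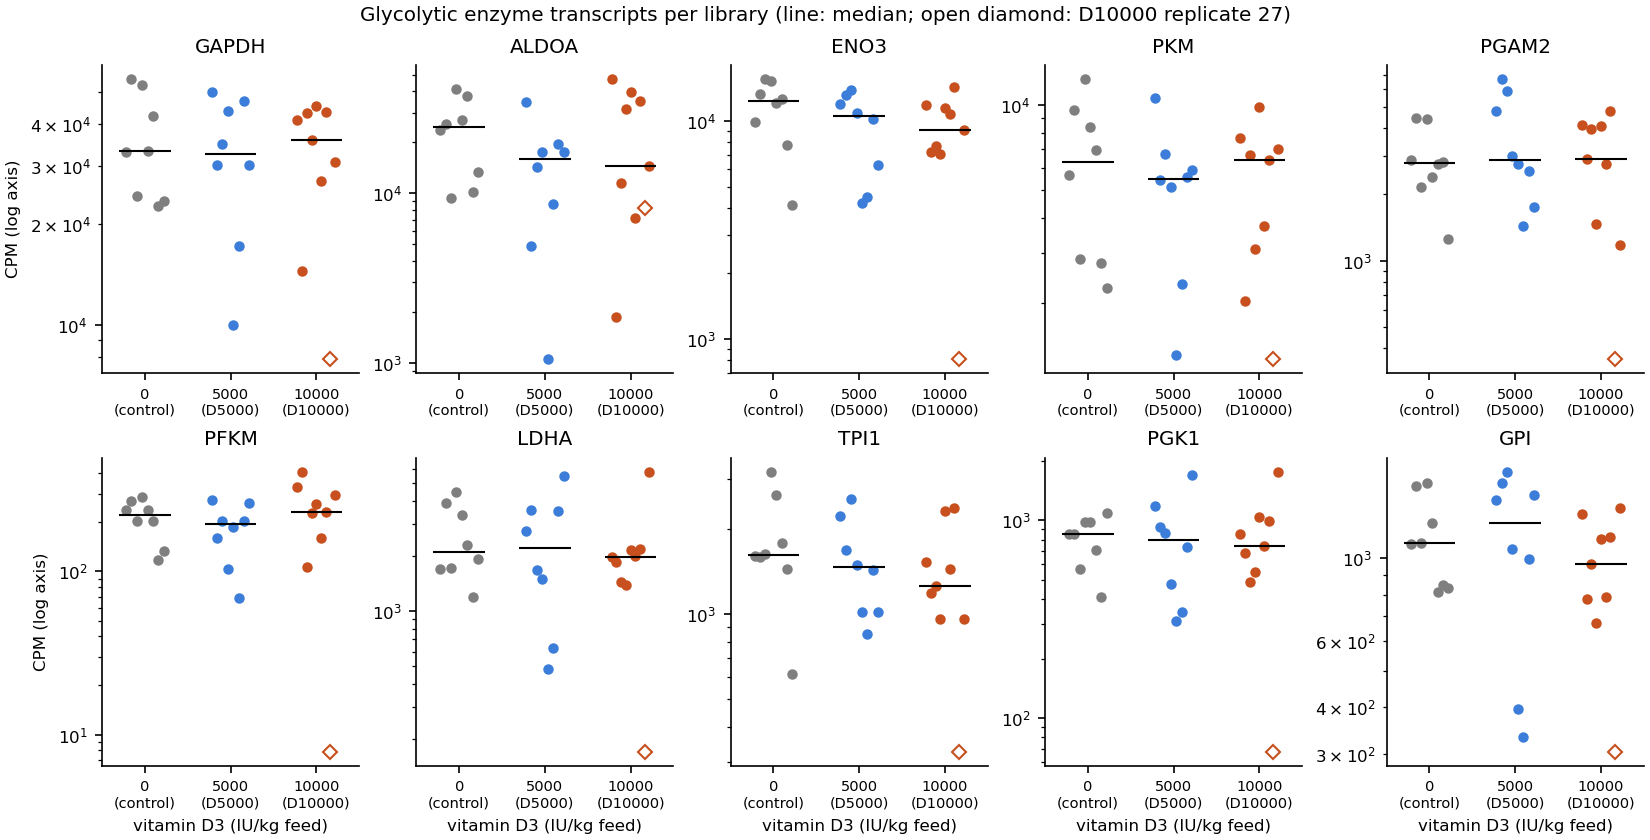
CPM of each glycolytic enzyme (log axis) in each library, by vitamin D3 in the feed, with the median as a line and D10000 replicate 27 as an open diamond. The 3 diets overlap for every gene, and the diamond is the lowest point for 9 of the 10, ALDOA being the exception.

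The first steps prepare the sugar for cleavage. GPI, which converts glucose 6-phosphate to fructose 6-phosphate, had its lowest, median and highest level at 815, 1096 and 1589 CPM in control libraries, 334, 1242 and 1701 CPM in D5000 libraries and 305, 968 and 1362 CPM in D10000 libraries. It had the smallest spread of the 10 genes, with a highest-to-lowest ratio of 5.6 over the 25 libraries. PFKM, the muscle subunit of phosphofructokinase, which commits the sugar to glycolysis, stood at 117, 221 and 284 CPM in control libraries, 68.8, 194 and 273 CPM in D5000 libraries and 7.9, 230 and 408 CPM in D10000 libraries. It was the least abundant step at the transcript level, and its highest-to-lowest ratio of 51.9 shrank to 5.9 without D10000 replicate 27.

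ALDOA, the muscle aldolase that cleaves fructose 1,6-bisphosphate, was the most variable enzyme over the 24 libraries other than D10000 replicate 27. Its lowest, median and highest levels were 9450, 24667 and 41064 CPM in control libraries, 1053, 15895 and 34438 CPM in D5000 libraries and 1853, 14466 and 47184 CPM in D10000 libraries. The highest library held 44.8 times the level of the lowest, with or without D10000 replicate 27. The 3 lowest were D5000 replicate 18 (1053 CPM), D10000 replicate 2 (1853 CPM) and D5000 replicate 6 (4925 CPM), and the lowest control library lay above all of them. The ratio of ALDOA to GAPDH, which does not depend on library scaling, was 0.106, 0.128 and 0.164 in these 3 libraries and reached 1.15 elsewhere. Of these 3, D5000 replicate 18 and D10000 replicate 2 also had the lowest shares of reads assigned to genes, 24.9% and 28.4%. Their liver transcripts summed to 35763 and 32501 CPM. D5000 replicate 6 had 52.0% assigned and 11442 CPM of liver transcripts. D10000 replicate 7, with 38.2% assigned and the highest liver sum (40042 CPM), had ALDOA at 11477 CPM. TPI1, which interconverts the triose phosphates, varied less, at 616, 1622 and 3189 CPM in control libraries, 850, 1465 and 2563 CPM in D5000 libraries and 327, 1262 and 2374 CPM in D10000 libraries.

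The later steps harvest ATP and NADH. GAPDH, which oxidises glyceraldehyde 3-phosphate and produces NADH, was the most abundant of the 10, at 22700, 33102 and 54425 CPM in control libraries, 9967, 32394 and 49903 CPM in D5000 libraries and 7886, 35699 and 45155 CPM in D10000 libraries. Its 3 medians lay within the range of each diet, and it supplied between 34.9% and 55.8% of the summed glycolytic counts of a library. PGK1, the first ATP-producing step, stood at 408, 852 and 1085 CPM in control libraries, 310, 801 and 1689 CPM in D5000 libraries and 67.7, 743 and 1761 CPM in D10000 libraries. PGAM2, the muscle phosphoglycerate mutase, stood at 1254, 2781 and 4443 CPM in control libraries, 1438, 2875 and 6675 CPM in D5000 libraries and 357, 2903 and 4802 CPM in D10000 libraries. All 3 diets overlapped for both genes. The PGAM2 medians were close together.

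ENO3, the muscle enolase, which makes phosphoenolpyruvate, stood at 4101, 12341 and 15582 CPM in control libraries, 4195, 10568 and 13870 CPM in D5000 libraries and 807, 9089 and 14325 CPM in D10000 libraries. Its medians descended with dose while its ranges overlapped, and its highest-to-lowest ratio was 19.3, or 3.8 without D10000 replicate 27, the smallest of the 10 genes over those 24 libraries. PKM, the pyruvate kinase of muscle and many other tissues, stood at 2265, 6326 and 12362 CPM in control libraries, 1314, 5502 and 10617 CPM in D5000 libraries and 1268, 6404 and 9850 CPM in D10000 libraries. LDHA, the lactate dehydrogenase subunit that prevails in fast fibres, stood at 1199, 2113 and 4464 CPM in control libraries, 484, 2205 and 5499 CPM in D5000 libraries and 170, 1984 and 5766 CPM in D10000 libraries. Its 2 highest values, in D10000 replicate 30 and D5000 replicate 29, lay above the whole control range, and its lowest lay far below it.

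Whether vitamin D3 in the feed changed these levels was tested with edgeR's quasi-likelihood test over all 10992 tested genes. No glycolytic enzyme passed the test. In D5000 against control, in D10000 against control, in D10000 against D5000 and in a joint test of the 3 diets, 0 of the 10 genes passed an adjusted p of 0.05, and the percentage of all tested genes that passed was 0 in each. At an unadjusted p under 0.05 stood 371 genes (3.38%), 263 genes (2.39%), 323 genes (2.94%) and 292 genes (2.66%) in these 4 tests, again with 0 of the 10. DESeq2 also called 0 genes in each, with 510, 339, 393 and 380 genes at an unadjusted p under 0.05.

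The estimates themselves lay mostly below 0. In D5000 against control, 9 of the 10 genes had a log2 fold change below 0, where 49% of all tested genes did, and their median was −0.23 against 0.01 for all genes. The lowest estimate was that of ALDOA, −0.70 ± 0.60 (SE), and the single positive one was that of PGAM2, 0.24 ± 0.44, which was 0.017 without D5000 replicate 6. The ALDOA estimate was −0.43 without control replicate 14. In D10000 against control all 10 were below 0, where 42.8% of all tested genes were, with a median of −0.36 against 0.07 for all genes. TPI1 had the lowest, −0.58 ± 0.40, followed by ENO3 at −0.53 ± 0.45, GPI at −0.43 ± 0.38 and PKM at −0.42 ± 0.48. Without control replicate 14 the values of TPI1, GPI and PKM were −0.32, −0.27 and −0.10. Without D10000 replicate 27, 8 of 10 were below 0 in that comparison, where 48.2% of all genes were, and their median was −0.20. In D10000 against D5000, 8 of 10 were below 0 (45.4% of all genes), with ALDOA at 0.47 ± 0.58 and PFKM at 0.25 ± 0.42 above it. Without D10000 replicate 27, 6 of 10 were below 0 in D10000 against D5000 (50% of all genes) and 9 of 10 in D5000 against control (48.3% of all genes). Both comparisons with control share the control libraries, and the 10 genes vary together across libraries, so that these counts are not 10 separate observations.

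With a library measure in the fit, many estimates against control turned, while as many as before lay below 0 in D10000 against D5000. With the percentage of reads assigned to genes as a covariate, 4 of the 10 genes were below 0 in D5000 against control (47.3% of all genes), 6 in D10000 against control (46.3%) and 8 in D10000 against D5000 (47.7%), with medians of 0.16, −0.02 and −0.20. With the mean log2 CPM of the fast-twitch markers as a covariate, 1 was below 0 in D5000 against control (47.7% of all genes), 3 in D10000 against control (48%) and 8 in D10000 against D5000 (50.8%), with medians of 0.18, 0.05 and −0.26. PGAM2 then had 0.78 ± 0.31 in D5000 against control (edgeR unadjusted p = 0.0165, adjusted p = 0.954) and −0.62 ± 0.29 in D10000 against D5000 (edgeR unadjusted p = 0.0412, adjusted p = 1.00). In both fits 0 genes passed an adjusted p of 0.05. Fewer muscle fibres in a sample and less of these mRNAs per fibre cannot be told apart in such bulk libraries.

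**Figure D2:**
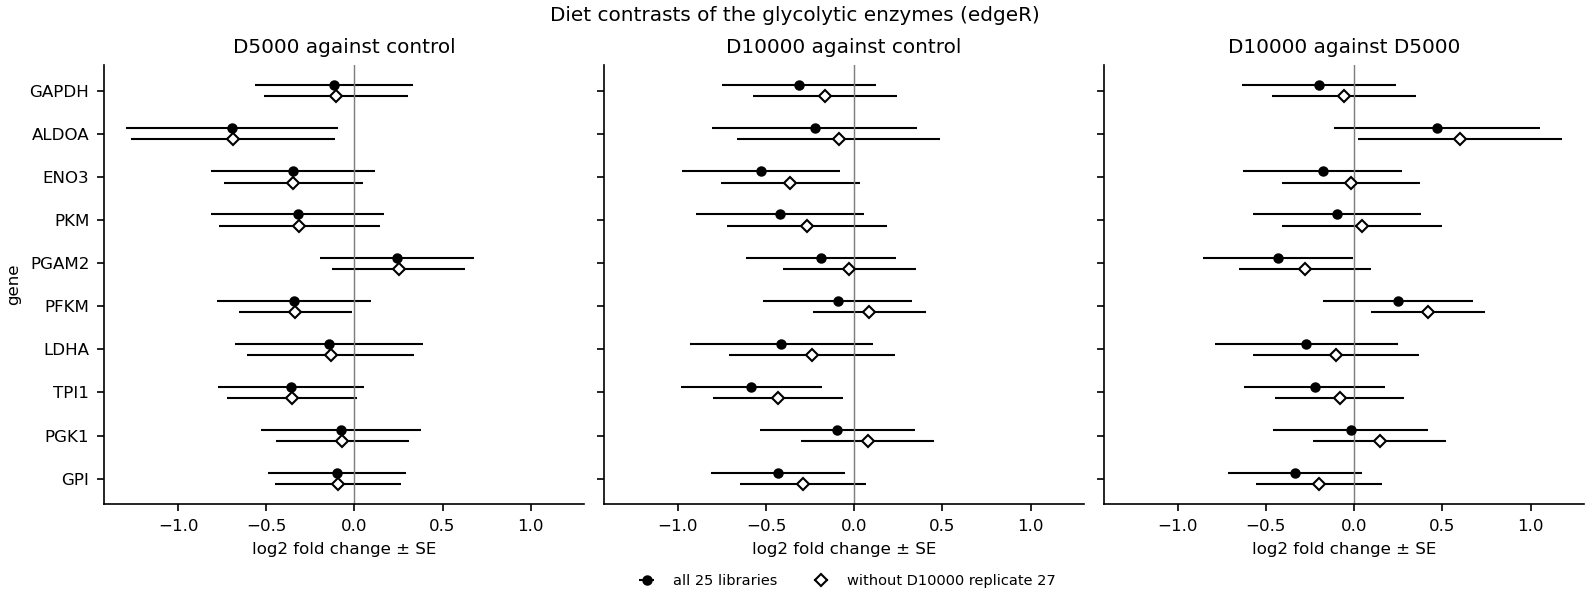
Log2 fold change ± SE (edgeR) of each glycolytic enzyme in the 3 diet contrasts, with all 25 libraries (filled circles) and without D10000 replicate 27 (open diamonds). Most estimates lie left of 0, and leaving out that library moves those of both D10000 contrasts to the right.

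The ratio between 2 of the enzymes set 3 libraries apart. PGK1 was below TPI1 in 22 libraries, with a ratio of 0.207 to 0.575, and above it in control replicate 28 (1.76), D5000 replicate 29 (1.66) and D10000 replicate 30 (1.83), with no library in between. This ratio was chosen after its values had been seen, and it is given as a description. In these libraries PGK1 stood at 1085, 1689 and 1761 CPM, each the highest of its diet, and TPI1 at 616, 1019 and 961 CPM. The counts behind the ratios ran from 5036 to 22350, so that counting error is small against the gap. The ratio of LDHA to PGAM2 was likewise highest there, at 1.54, 3.12 and 4.91, against a median of 0.59 over the 25 libraries. FBP2, the muscle fructose bisphosphatase, reached 511 and 532 CPM in D5000 replicate 29 and D10000 replicate 30, its 2 highest values. Control replicate 28 did not share this, as the whole control range of FBP2, given below, lay under both. Control replicate 28 had the lowest fast-twitch sum of its diet, 31878 CPM, against 48117 CPM in D5000 replicate 29 and 48510 CPM in D10000 replicate 30. The animal numbers follow each other and belong to 1 pig of each diet; what these pigs shared beyond that was not tested.

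**Figure D3:**
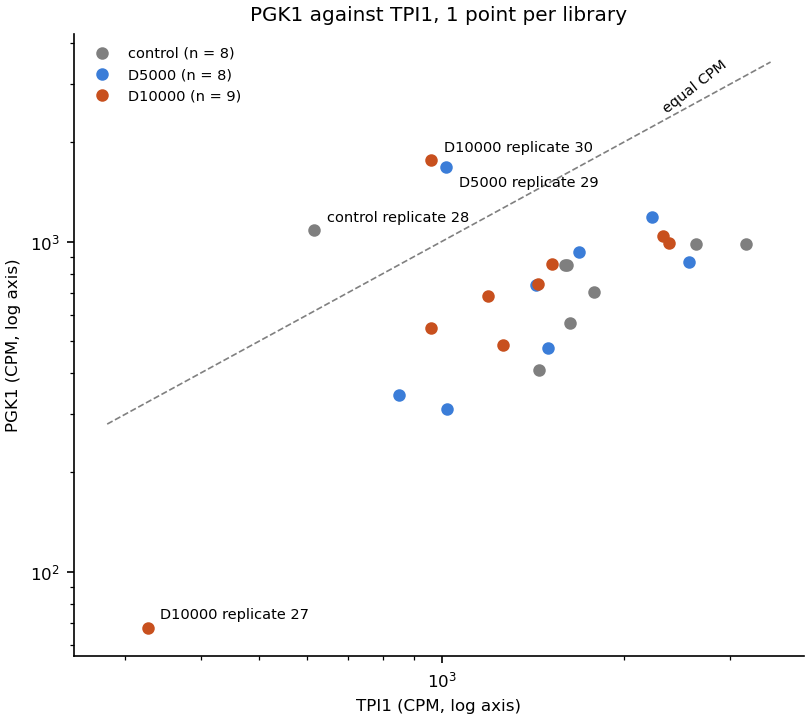
PGK1 against TPI1 in CPM (both axes log), 1 point per library coloured by diet, with a dashed line where both are equal. The libraries of control replicate 28, D5000 replicate 29 and D10000 replicate 30 lie above the line and the other 22 below it, D10000 replicate 27 at the lower left.

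Outside D10000 replicate 27, ENO3, PGAM2, PFKM and ALDOA held most of the counts in each isozyme group compared. Leaving out D10000 replicate 27, ENO1 made up 0.364% to 3.47% of ENO1 and ENO3 counts, PGAM1 0.450% to 4.36% of PGAM1 and PGAM2 counts, and ALDOC, the aldolase of brain and other tissues, 0% to 0.120% of ALDOA and ALDOC counts. PFKL and PFKP, the liver and platelet phosphofructokinases, together made up 1.24% to 26.2% of the phosphofructokinase counts. LDHB, the heart-type lactate dehydrogenase subunit, had 0 to 21 counts per library, and at most 0.273% of LDHA and LDHB counts. Whether the annotation holds the 3′ end of LDHB was not tested, so its share cannot be read as that of the subunit. ALDOC was at 0 in 3 libraries and LDHB in 11, where a count of 0 allows shares of up to 0.0658% and 0.143% (3 counts per library, counting error only). HK1 and HK2, the hexokinases that feed glucose into the pathway, were both low, at 7.1 to 27.5 CPM and 7.8 to 58.9 CPM, and HK1 made up 12.4% to 66.8% of their sum.

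D10000 replicate 27 had another isozyme profile. Its ENO1 share was 23.7%, its PGAM1 share 56.8%, its PFKL and PFKP share 93.7%, its ALDOC share 15.7% and its HK1 share 90.0%, each above the range of the other 24 libraries. ALDOC reached 1521 CPM there, against 0 to 14.9 CPM in the others, HK1 381 CPM and PGAM1 470 CPM. All the muscle forms but ALDOA were at their lowest in this library, PFKM at 7.9 CPM and ENO3 at 807 CPM, beside the adipocyte and fast-twitch marker sums given above. This is 1 library, and it has no replicate.

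No isozyme share passed a test between diets. The exact two-sided permutation tests of 6 shares in 3 contrasts gave adjusted p-values of 0.798 or more over the 18 tests. The smallest raw p was that of ENO1, whose share averaged 1.50% ± 0.97 in D5000 libraries and 0.826% ± 0.373 in control libraries (SD, n = 8 each; exact permutation p = 0.0733, adjusted p = 0.798). The difference of 0.67 percentage points was 0.39 without D5000 replicate 18. The D10000 means were set by replicate 27: PGAM1 averaged 7.74% ± 18.4 in D10000 libraries (SD, n = 9) and 1.63% ± 1.17 in control libraries (SD, n = 8), a difference of 6.12 percentage points that was −0.02 without that library.

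**Figure D4:**
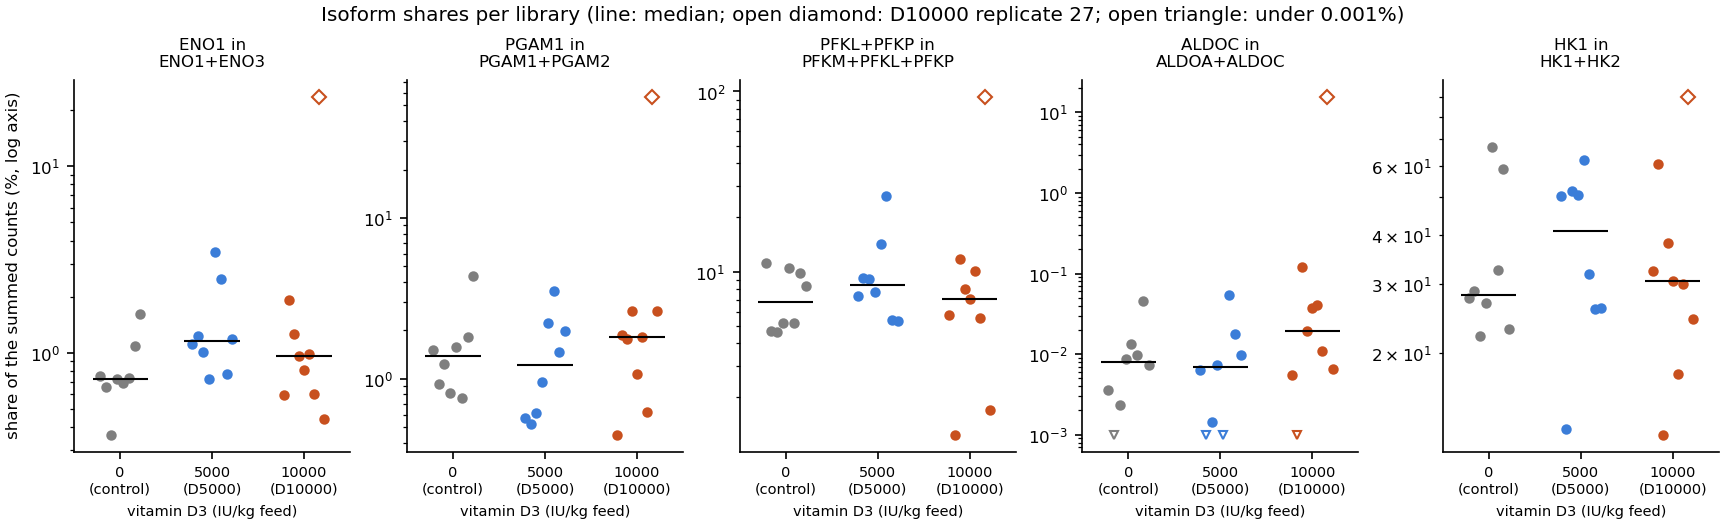
Share of the summed counts (percent, log axis) held by the other isozymes, and by HK1 among hexokinases, in each library by vitamin D3 in the feed, with the median as a line, D10000 replicate 27 as an open diamond and ALDOC shares under 0.001% as open triangles. The diamond lies above all other points in every panel, and the diets otherwise overlap.

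The 10 enzymes varied together from pig to pig. Of the 45 pairs, 39 had a Pearson r past an adjusted p of 0.05 (permutation test within diets on log2 CPM centred within diets), all positive, and 34 passed by Spearman's rho. The share of other gene pairs past these tests was not computed, so these counts cannot be read as particular to the enzymes. Over the 45 pairs, r ran from 0.21 to 0.92 with a median of 0.70, which was 0.53 without D10000 replicate 27. Leaving it out lowered r from 0.72 to 0.34 for ENO3 with PGK1 and from 0.56 to 0.19 for GAPDH with PFKM. It raised r from 0.79 to 0.87 for GAPDH with ALDOA. The tests were not repeated without that library, so the counts of 39 and 34 hold for all 25 libraries only. CPM values of 1 library share its total, and the median r was 0.81 on TMM-scaled CPM. LDHA with PGK1 had r = 0.92 and rho = 0.80 (permutation adjusted p = 7.5e-05 for r), and r = 0.84 without the 2 libraries farthest from the median. GAPDH with PKM followed at r = 0.91 and rho = 0.82, and ENO3 with TPI1 at r = 0.89 and rho = 0.89. Those 3 pairs also had the steadiest log2 ratios over the libraries, with SDs of 0.44, 0.40 and 0.42. ALDOA went with GAPDH (r = 0.79, rho = 0.78) and PKM (r = 0.76, rho = 0.79), and had the 2 lowest r of the 45, 0.21 with PFKM and 0.22 with PGAM2. The first of these rests on D5000 replicate 18 and D10000 replicate 2, without which r was 0.57, and its rho was 0.54. By rho the lowest pair was PGAM2 with LDHA, at 0.21, and without D10000 replicate 27 the lowest r was 0.057, of PGAM2 with PGK1. The 3 libraries with a high ratio of PGK1 to TPI1 lie apart from the rest, so no r is given for that pair, which is among the 45 and the 39.

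Fast-twitch markers, but not slow-twitch markers, correlated with most of these enzymes. The mean log2 CPM of the fast-twitch markers correlated with 9 of the 10 by Pearson's r and 8 by Spearman's rho (permutation tests, adjusted p under 0.05 over 30 relations), with a median r of 0.76 over the 10, and 0.59 without the 2 farthest libraries. TPI1 had r = 0.88 and rho = 0.80, and kept r = 0.84 without those libraries. For PGK1 (r = 0.73) and LDHA (r = 0.71), r was 0.19 and 0.30 without D10000 replicate 27 and D5000 replicate 24, so that these relations rest on those libraries. Of 10 listed slow-twitch markers, 6 had an identifier. Their mean log2 CPM correlated with 0 of the 10 enzymes by either measure, with a median r of 0.20. This median was −0.034 without D10000 replicate 27 and 0.38 on TMM-scaled CPM. The percentage of reads assigned to genes correlated with 3 by Pearson's r: ALDOA at r = 0.81 and rho = 0.74, GAPDH at r = 0.58 and rho = 0.60, and PKM at r = 0.56 and rho = 0.58. By rho LDHA passed as well, at 0.55 with r = 0.43. Without D5000 replicate 18 and D10000 replicate 2, r was 0.60 for ALDOA, 0.32 for GAPDH, 0.34 for PKM and 0.38 for LDHA. PGAM2 had r = −0.08 and rho = −0.11. What part the assigned share or the fibre markers have in the levels was not tested. Nor were the tests of these relations repeated without D10000 replicate 27. The share of all tested genes past the same tests was not computed, so these counts cannot be read as particular to the enzymes.

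**Figure D5:**
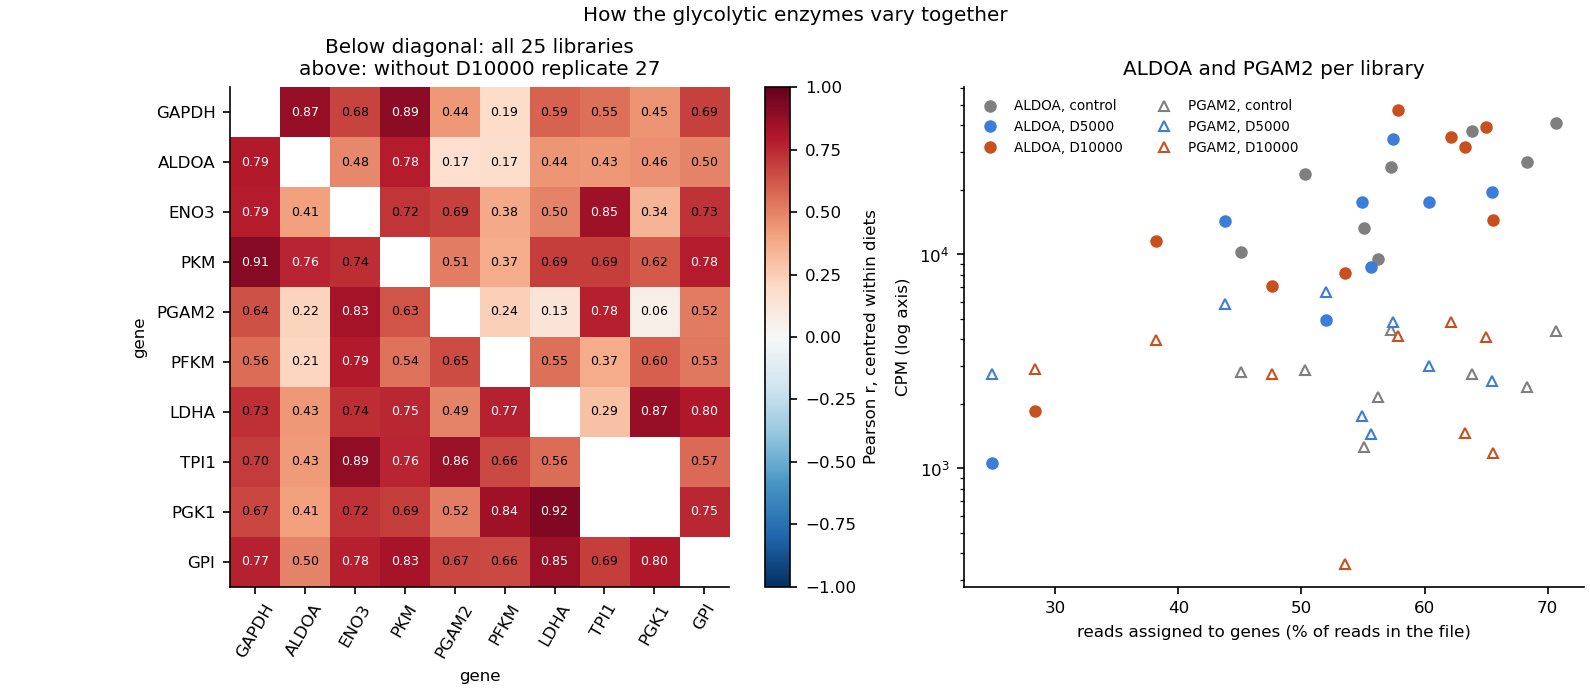
Left, Pearson r of log2 CPM centred within diets for each pair of enzymes other than PGK1 with TPI1 (left blank), with all 25 libraries below the diagonal and without D10000 replicate 27 above it. Right, CPM (log axis) of ALDOA (filled circles) and PGAM2 (open triangles) against the percentage of reads assigned to genes, where ALDOA is lowest in the 2 libraries under 30% and PGAM2 is not.

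Among 9656 other tested genes with a symbol, those most like the 10 enzymes were found by the median Pearson r with them over the 25 libraries, as a description without a test. The highest were MYL1, a fast myosin light chain, at 0.81, AK1, the adenylate kinase of muscle cytosol, at 0.78, EFCAB7, an EF-hand protein, at 0.78, TPM1, a tropomyosin of the thin filament, at 0.78 and VAPA, an endoplasmic reticulum membrane protein, at 0.78. The median over all candidates was −0.14. MYL1 and AK1 also held the first places without D10000 replicate 27, at 0.74 and 0.72. In RefSeq's Sscrofa11.1 annotation EFCAB7 lies with 1 gene between it and PGM1, the phosphoglucomutase that links glycogen to glycolysis. PGM1 had 0 identifiers in the data, so its level could not be measured. EFCAB7 had a mean of 6739 CPM, above the 5666 CPM of PKM. Which transcript the EFCAB7 reads come from was not tested. The lowest were PRDX1, a peroxiredoxin, at −0.75, ACACA, the acetyl-CoA carboxylase of fatty acid synthesis, at −0.72, and TRAPPC4, PTGIS and LAMP1, between −0.71 and −0.72. Without D10000 replicate 27 these medians were −0.62 for PRDX1, −0.46 for ACACA, −0.49 for TRAPPC4, −0.52 for PTGIS and −0.49 for LAMP1, and those of EFCAB7, TPM1 and VAPA were 0.65, 0.62 and 0.66.

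Genes around the pathway did not pass the test either. Of 15 tested genes among 19 other isozymes, hexokinases and related enzymes, 0 passed in any contrast. In D5000 against control 6 were above and 9 below 0 (median −0.09), where 49% of all tested genes were below. In D10000 against control 11 were above and 4 below 0 (median 0.17), where 42.8% of all genes were below. Without D10000 replicate 27, 5 were above and 10 below in that contrast (median −0.16), where 48.2% of all genes were below. At an edgeR unadjusted p under 0.05 stood 0 in D5000 against control, 3 in D10000 against control and 3 in D10000 against D5000. Without D10000 replicate 27, 0 stood there in D10000 against control and 1 in D10000 against D5000. ALDOC had a log2 fold change of 5.84 ± 1.57 in D10000 against control, and HK1 of 1.59 ± 0.60 and PGAM1 of 0.87 ± 0.41, where the values without that library were 1.20 ± 0.84, −0.19 ± 0.29 and −0.05 ± 0.23. ENO1 had 0.39 ± 0.27 in D5000 and 0.09 ± 0.26 in D10000, each against control, and BPGM, which makes 2,3-bisphosphoglycerate in red cells, −0.51 ± 0.43 and −0.33 ± 0.42.

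Of 17 tested regulators of glycolytic flux among 19 listed, 0 passed. In D5000 against control 9 were above and 8 below 0 (median 0.01), where 49% of all tested genes were below. In D10000 against control 8 were above and 9 below 0 (median 0.00), where 42.8% of all genes were below. At an edgeR unadjusted p under 0.05 stood 1 of the 17 in D5000 against control (3.38% of all genes) and 0 in the other contrasts. FBP2 was the most abundant, at 168, 289 and 345 CPM (lowest, median, highest) in control libraries, 52.5, 156 and 511 CPM in D5000 libraries and 62.4, 159 and 532 CPM in D10000 libraries. Its log2 fold change was −0.67 ± 0.44 in D5000 and −0.48 ± 0.43 in D10000, each against control, and its highest values lay in vitamin D3 libraries. EGLN1, an oxygen-sensing prolyl hydroxylase, had 0.23 ± 0.31 and −0.22 ± 0.30. PDK4, a kinase that inhibits pyruvate dehydrogenase, had −0.47 ± 0.31 and −0.43 ± 0.30. FBP1, the liver fructose bisphosphatase, had 0.27 ± 0.39 and 0.09 ± 0.38, and PFKFB3, which makes the activator of phosphofructokinase, had 0.63 ± 0.55 and 0.15 ± 0.53.

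Lactate, pyruvate and NADH handling gave a similar picture. Of 12 tested genes among 15 listed, 0 passed, with 4 above and 8 below 0 in each dose against control (medians −0.24 and −0.17). Of all tested genes 49% were below 0 in D5000 and 42.8% in D10000, each against control. At an edgeR unadjusted p under 0.05 stood 1 of the 12 in D10000 against control (2.39% of all genes) and 0 in the other contrasts. GPD1, the cytosolic arm of the glycerol phosphate shuttle, was the most abundant, at 226, 775 and 1291 CPM in control libraries, 344, 563 and 948 CPM in D5000 libraries and 498, 685 and 996 CPM in D10000 libraries, and had −0.49 ± 0.35 and −0.33 ± 0.34. GPD2, its mitochondrial partner, had −0.23 ± 0.42 and −0.13 ± 0.41. MPC2, a subunit of the mitochondrial pyruvate carrier, had −0.33 ± 0.31 and −0.10 ± 0.30. GOT2 and MDH2, mitochondrial enzymes of the malate-aspartate shuttle, had −0.15 ± 0.27 and −0.25 ± 0.44 in D5000 against control and −0.21 ± 0.26 and −0.35 ± 0.42 in D10000 against control.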

How the data were processed

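Muscle RNA of 25 pigs was sequenced as QuantSeq FWD libraries, per the labels. The deposited values are raw counts, integers, 1 for each Ensembl pig gene identifier and library, with no normalization by the authors. FastQC is named in the submitters' processing notes; the aligner, counting program, build and strand setting are not given in the sources used here. In RefSeq's Sscrofa11.1 annotation another gene overlaps GAPDH, ALDOA, PGAM2, PFKM and GPI, and processed pseudogenes can take reads of such abundant genes, so these levels are uncertain to that extent. Of 25880 identifiers, 1 was missing in D10000 replicate 27 and was dropped. Reads in the files' summary lines, all but the 24.9% to 70.6% assigned to genes, stayed out, as did spike-ins (1 count in all).

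Counts were fitted with edgeR 4.0.16 in R 4.3.3 (TMM, filterByExpr with minimum count 10 and minimum total 15, glmQLFit robust, diet as the only term, all 25 libraries), with Benjamini-Hochberg adjustment over 10992 genes at 0.05. The common biological coefficient of variation was 0.669. On simulated counts for D10000 against control (10765 genes), the fit recovered 98.5% of 200 genes changed by a log2 fold of 3. Smaller changes, such as the estimates of the 10 enzymes, were not simulated, so this recovery does not bear on them. Log2 CPM used a prior count of 2. Permutation tests of relations used 100000 permutations (smallest p 1e-05), and shares used all 12870 or 24310 splits. DESeq2 1.42.0, other scalings, filters and covariates, and leaving out libraries were the alternatives. The most alike libraries still differed by far more than sampling noise, so each was counted as a library of its own.

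Members, gene lists and tests were chosen with earlier results of these data known. Text names the 10 members, the 5 most abundant tested genes of each pathway list, the isozyme partners, and the 5 most and least like genes. Of these, 1 is not reported here. No molecular identifiers are named in the labels, so limits from a count of 0 cover counting error only.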

Additional observations from a re-analysis of the deposited data

Results flagged for a closer look

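Within a diet, a value is listed here when its gap to the nearest library is large against the range of that diet (Dixon's 95% critical value). Of 48 groups checked, chance alone flags about 1 in 20.

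LDHA was set apart in D10000 replicate 30, at 5766 CPM against 2172 CPM in the next library of that diet.

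In D10000 replicate 27 the shares of the other isozymes were set apart: 23.7% for ENO1, 56.8% for PGAM1, 93.7% for PFKL and PFKP together, 15.7% for ALDOC and 0.228% for LDHB. The next highest D10000 libraries had 1.92%, 2.65%, 11.7%, 0.120% and 0.0971%.

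The remaining values were small shares or single libraries. In D5000 replicate 24, PFKL and PFKP held 26.2% of phosphofructokinase counts and ALDOC 0.055% of ALDOA and ALDOC counts. In control replicate 28, PGAM1 held 4.36% of PGAM1 and PGAM2 counts. In control replicate 23, LDHB held 0.273% of LDHA and LDHB counts and ALDOC 0.046% of ALDOA and ALDOC counts.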

How the results depend on the processing

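Under RLE scaling, no filter, DESeq2, either covariate and the loss of any 1 library, 0 genes passed an adjusted p of 0.05 in each of the 4 tests. No isozyme share passed as a mean log2 ratio or without any 1 library of its contrast. RLE scaling moved the median of all genes in D10000 against control to 0.11, against 0.07 with TMM.

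Signs of several estimates were not stable; the cause was not tested. With the assigned share as a covariate, the log2 fold change in D5000 against control was 0.16 for GAPDH, 0.17 for PKM, 0.22 for LDHA, 0.23 for PGK1 and 0.16 for GPI, and in D10000 against control 0.071 for ALDOA, 0.0024 for PKM, 0.067 for PFKM and 0.094 for PGK1. With the fast-twitch mean as a covariate it was, in D5000 against control, 0.26 for GAPDH, 0.14 for ENO3, 0.20 for PKM, 0.19 for PFKM, 0.31 for LDHA, 0.10 for TPI1, 0.16 for PGK1 and 0.17 for GPI, and in D10000 against control 0.023 for GAPDH, 0.16 for ALDOA, 0.12 for PKM, 0.16 for PGAM2, 0.22 for PFKM, 0.026 for LDHA and 0.072 for PGK1.

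Leaving out 1 library turned a sign within these ranges. In D5000 against control: GAPDH −0.30 to 0.072, LDHA −0.35 to 0.11, PGK1 −0.25 to 0.078 and GPI −0.21 to 0.065. In D10000 against control: ALDOA −0.41 to 0.042, PGAM2 −0.40 to 0.015, PFKM −0.21 to 0.085 and PGK1 −0.42 to 0.077. In D10000 against D5000: PKM −0.31 to 0.080 and PGK1 −0.35 to 0.15. Share differences in percentage points were, in D5000 against control, −0.44 to 0.24 for PGAM1, −0.0054 to 0.0056 for ALDOC and −0.23 to 7.49 for HK1. In D10000 against control they were −0.0253 to 0.0316 for LDHB, −0.0167 to 7.03 for PGAM1, −1.05 to 10.5 for PFKL and PFKP and −5.07 to 5.94 for HK1. In D10000 against D5000 they were −0.55 to 2.35 for ENO1, −4.18 to 7.76 for PFKL and PFKP and −8.14 to 1.74 for HK1. As a mean log2 ratio, the difference was 0.050 for LDHB in D10000 against control, −0.0299 for ENO1 and −0.020 for PFKL and PFKP in D10000 against D5000.

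Without D10000 replicate 27 the median r of the 45 pairs was 0.53, and that of the slow-twitch markers −0.034, against 0.38 on TMM-scaled CPM. No paired analysis was possible because each animal number occurs in 1 diet and the labels name no litters.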
